A study of Mus musculus with 4 samples.

Results

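The genes of the heterotrimeric G protein subunits and of the regulators of G protein signalling (RGS proteins) were followed through 4 RNA-seq libraries of picked mouse brain cells. Members were all rows whose gene symbol starts with Gna, Gnb, Gng or Rgs in the forms used for these families, with Gnb limited to Gnb1 to Gnb5, which gave 54 of the 24421 genes in the tables: 16 alpha, 5 beta and 10 gamma subunit genes and 23 Rgs symbols. The 2 libraries labelled excitatory hold fluorescent cells of the brain marked by αCaMKII, a calcium-dependent kinase abundant in forebrain projection neurons. The 2 labelled inhibitory hold fluorescent cells marked by vGAT, which loads GABA into vesicles. Per the labels' protocols the mice came from αCaMKII-Cre and vGAT-IRES-Cre colonies bred to wild-type C57Bl/6J mice, were male and 3 to 5 months old, and each library was made from 100 cells collected by hand. The Cre drivers are transgenes that act in CaMKII-expressing and vGAT-expressing cells. The series title names a mouse model of Noonan syndrome, but for these 4 libraries the labels used here give no mutation, brain region, treatment or reporter. Nothing in them tells whether replicates are from different mice or cultures, so p-values measure only library-to-library spread, which may be technical.

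Heterotrimeric G proteins carry signals from receptors with 7 membrane-spanning segments into the cell. An activated receptor makes the alpha subunit exchange GDP for GTP, after which alpha and the paired beta and gamma subunits act on enzymes and channels, and RGS proteins speed up GTP hydrolysis by alpha and so shorten the signal. In brain neurons these proteins set the strength and duration of responses to dopamine, serotonin, acetylcholine, opioids, GABA and glutamate acting on metabotropic receptors.

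A deposited value is read here as log2(normalized reads + 1), with the added 1 assumed, and differences are excitatory minus inhibitory on that scale. Adjusted p-values are Benjamini-Hochberg values over all tested genes from limma's moderated test, called at 0.05. The deposited values as a whole lay higher in the excitatory libraries, with a median difference of 0.52 over 13619 tested genes, and median-of-ratios scaling brought that median to -0.01. Each difference is therefore given in the deposited values and, as the scaled difference, after that scaling. The libraries had 12609 to 12798 genes above 0. Marker genes agreed only in part with the labels. Camk2a was 16.53 and 16.46 under the excitatory and 15.60 and 15.66 under the inhibitory label (limma adjusted p = 0.000318). Gad1, a gene of GABA synthesis, was 10.91 and 11.17 against 11.45 and 11.59 (limma adjusted p = 0.0649), its relative Gad2 and the glutamate transporter gene Slc17a7 did not pass (0.824 and 0.182), and Slc32a1, which encodes vGAT, had 0 in each of the 4. Excitatory and inhibitory therefore name libraries by their labels throughout. Estimated reads are linear values divided by the spacing of low values in a library, and are approximate.

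In the deposited values most G protein and RGS genes that could be tested were higher in the libraries labelled excitatory. A smaller set was higher in those labelled inhibitory. After scaling, members higher under the excitatory label were no longer a majority (40.5%). Of 54 members 42 were tested, having passed the filter on low values (1 or more on the log2 scale in 2 or more libraries). Of these, 25 were higher in the excitatory libraries (59.5%, against 45.0% of all tested genes), 8 were higher in the inhibitory libraries (19.0%, against 26.8%) and 9 did not pass; in either direction 71.8% of all tested genes passed, and 65.9% after scaling. With scaled values 17 members were higher under the excitatory label (40.5%, against 32.4%) and 10 under the inhibitory label (23.8%, against 33.5%). The median difference of the tested members was 0.86 in the deposited values and 0.32 after scaling. These shares describe tested members only: 6 of them (Gng8, Rgs3, Rgs6, Rgs9, Rgs11 and Rgs9bp) reached the minimum through the libraries of a single label and so could hardly fail to differ. Leaving out any 1 library leaves a label with 1 library, and fewer members were then called in each direction, whichever library it was. Calls over all tested genes fell as well, so the loss was not confined to these members. The labels did not overlap for most tested members when the deposited values were compared, while Rgs7 and Rgs14 overlapped. On that scale 30 were higher in both excitatory libraries (71.4%, against 54.6% of all tested genes) and 10 in both inhibitory libraries (23.8%, against 31.8%). Overlap was not counted after scaling. Among the 30, Gnai2, Gnb1, Gnb2, Gng3 and Gng5 had negative scaled differences. Each library holds RNA from a pool of cells, so fewer cells of a type and less RNA per cell cannot be told apart.

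**Figure D1:**
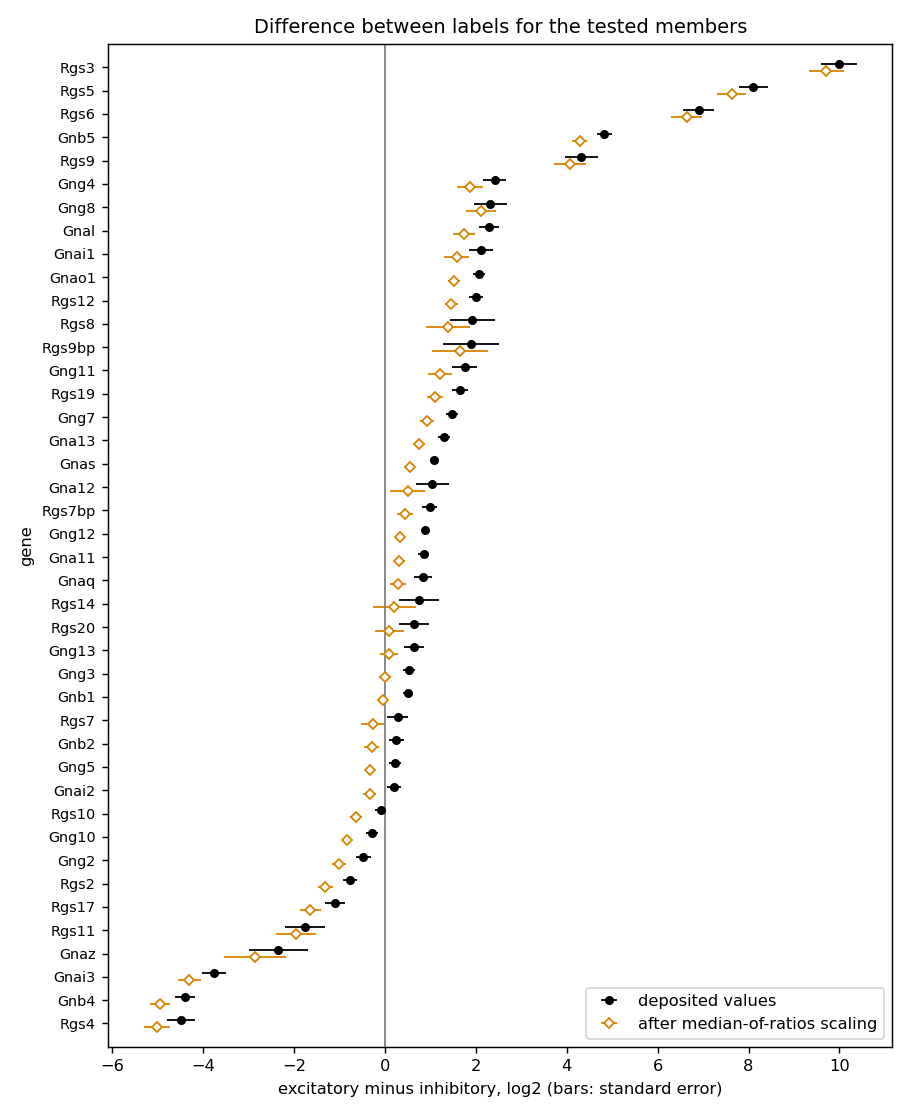
Difference between the libraries labelled excitatory and inhibitory (log2, horizontal axis) for each of the 42 tested members (vertical axis), with standard errors as bars. Black points are the deposited values and open diamonds the values after median-of-ratios scaling, which lie lower throughout. Rgs3, Rgs5, Rgs6, Gnb5 and Rgs9 stand far to the right and Rgs4, Gnb4 and Gnai3 far to the left in both.

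The sequences before the starts of 4 genes are shown because these genes had the largest differences in each direction among called members with a value above 0 in all libraries and a single start in the RefSeq promoter table: Rgs5 and Gnb5, higher in the excitatory libraries, and Rgs4 and Gnai3, higher in the inhibitory libraries. Each is the 250 bases before the RefSeq start on build GRCm38.p6, read 5′ to 3′ on the strand of the gene. Capitals mark, on either strand, the letters of 4 promoter motifs, none of which overlap here. The motifs searched were the TATA box with the letters TATAAA, the CCAAT box, the core of the cAMP response element with the letters TGACG, and the GC box with the letters GGGCGG.
Rgs5 (chr1:169655251-169655500, plus strand): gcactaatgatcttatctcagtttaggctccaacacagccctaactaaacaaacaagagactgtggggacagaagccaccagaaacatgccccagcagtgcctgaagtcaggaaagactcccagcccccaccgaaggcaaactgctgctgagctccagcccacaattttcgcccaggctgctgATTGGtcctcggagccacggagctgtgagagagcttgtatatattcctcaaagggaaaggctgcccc
Gnb5 (chr9:75306038-75306287, plus strand): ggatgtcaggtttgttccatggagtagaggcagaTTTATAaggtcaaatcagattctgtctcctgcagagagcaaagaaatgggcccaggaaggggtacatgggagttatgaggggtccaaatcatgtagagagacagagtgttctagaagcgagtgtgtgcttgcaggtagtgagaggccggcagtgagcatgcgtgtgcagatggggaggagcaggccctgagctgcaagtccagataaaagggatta
Rgs4 (chr1:169747643-169747892, minus strand): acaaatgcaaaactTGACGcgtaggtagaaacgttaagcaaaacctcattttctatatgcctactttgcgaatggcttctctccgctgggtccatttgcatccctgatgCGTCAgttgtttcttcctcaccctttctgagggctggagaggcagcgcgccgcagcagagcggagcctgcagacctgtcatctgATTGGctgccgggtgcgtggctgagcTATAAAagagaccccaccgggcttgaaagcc
Gnai3 (chr3:108146153-108146402, minus strand): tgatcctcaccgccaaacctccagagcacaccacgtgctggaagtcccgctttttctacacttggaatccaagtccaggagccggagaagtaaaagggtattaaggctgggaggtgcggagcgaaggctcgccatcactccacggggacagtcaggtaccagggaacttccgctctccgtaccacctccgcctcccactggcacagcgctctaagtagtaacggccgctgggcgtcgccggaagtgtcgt
Before Rgs4 lay a TATAAA starting 31 bases before the start, a CCAAT on the other strand and 2 copies of the cAMP response element core. Before Rgs5 lay a CCAAT on the other strand and none of the other letters, before Gnb5 a TATAAA on the other strand starting 216 bases before the start, and before Gnai3 none of the 4. In windows of the same length at 32817 starts of all genes, the TATA box letters were found in 12.4%, those of the CCAAT box in 33.8%, of the cAMP response element core in 17.7% and of the GC box in 32.7%. The table has 53 starts of 40 of the 54 members, and the shares there were 15.1%, 28.3%, 22.6% and 47.2% in the same order. These matches are descriptions of letters, and no binding was measured.

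Alpha subunits decide which enzyme a receptor reaches. Of 16 alpha genes 11 were tested; 8 were higher in the excitatory libraries (72.7%, against 45.0% of all tested genes), 2 were lower there (18.2%, against 26.8%) and 1 did not pass. With scaled values 5 were higher (45.5%, against 32.4%), 2 lower (18.2%, against 33.5%) and 4 did not pass. In the stimulatory class, Gnas, which encodes the activator of adenylyl cyclase, had the highest level per kb of exon of any member in all 4 libraries, with deposited values of 19.54 and 19.49 under the excitatory and 18.39 and 18.48 under the inhibitory label. Both excitatory values lay about 1 unit above both inhibitory values (difference 1.08, SE 0.042, limma adjusted p = 9.49e-05; scaled 0.54, adjusted p = 0.00021). Gnal, which encodes the related subunit of olfactory neurons and striatum, was 13.13 and 12.93 against 11.00 and 10.49. It was 4.87-fold higher in the excitatory libraries (difference 2.28, SE 0.22, limma adjusted p = 0.000861; scaled 1.74, adjusted p = 0.00346). Of 8 marker genes of striatal projection neurons, 2 (Ppp1r1b and Tac1) were higher under the excitatory and 1 (Pde10a) under the inhibitory label, and Drd2, Adora2a and Penk were among those listed at 0 in all 4. The log2 of their summed level was 11.61 to 11.98 against 10.68 to 11.17, and its part in the Gnal difference was not tested. Tac1 reached the minimum through the excitatory libraries alone, so its call adds no support.

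Within the inhibitory class, whose members restrain adenylyl cyclase, the genes went in opposite directions. Gnai1 was 11.63 and 11.28 under the excitatory and 9.57 and 9.09 under the inhibitory label (4.34-fold; difference 2.12, SE 0.26, limma adjusted p = 0.00186; scaled 1.58). Gnao1, which encodes the abundant alpha subunit of neurons that regulates calcium and potassium channels, was 12.90 and 12.93 against 10.78 and 10.90 (4.2-fold; difference 2.07, SE 0.14, limma adjusted p = 0.000286; scaled 1.53). Both genes were separated by label with replicates far closer to each other than to the other label. Gnai3, a close relative of Gnai1, had 8.07 and 7.67 under the excitatory label against 11.80 and 11.47 in the inhibitory libraries. It was 13.6-fold higher in the inhibitory libraries (difference -3.77, SE 0.26, limma adjusted p = 0.000303; scaled -4.31, adjusted p = 0.000278). Gnaz, a subunit that pertussis toxin does not modify, was low in all libraries, with 3.38 and 4.47 against 6.93 and 5.61, and passed with wide replicate gaps (difference -2.34, SE 0.65, limma adjusted p = 0.0274; scaled -2.86). Gnai2, at 13.32 and 12.99 against 12.97 and 12.94, did not pass (difference 0.20, limma adjusted p = 0.278), and its scaled difference lay on the other side of 0 (-0.34, adjusted p = 0.0944). The transducins of rods and cones, Gnat1 and Gnat2, and the taste subunit gene Gnat3 were listed at 0 in all 4 libraries.

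In the class that activates phospholipase C beta, Gna11 was 13.08 and 13.21 against 12.26 and 12.31, and Gnaq 11.65 and 11.34 against 10.56 and 10.76. Their differences of 0.86 (SE 0.12, limma adjusted p = 0.00296) and 0.83 (SE 0.20, adjusted p = 0.0167) passed in the deposited values, and the scaled differences of 0.32 and 0.29 did not (adjusted p = 0.09 and 0.208). Their relatives Gna14 (0.33 in excitatory 1, otherwise 0) and Gna15, a subunit of blood cells listed at 0, were not tested. Gna13, which couples receptors to control of the cytoskeleton, was 13.11 and 13.01 against 11.67 and 11.85 and passed in both scalings (difference 1.29, SE 0.14, limma adjusted p = 0.00114; scaled 0.75, adjusted p = 0.00553). Gna12, of the same class, was 9.72 and 10.35 against 9.30 and 8.68 and passed narrowly (difference 1.04, SE 0.35, limma adjusted p = 0.0499), but not after scaling (0.50, adjusted p = 0.307). Leaving out a library ended the calls of several alpha genes: those of Gnai1 and Gnal without excitatory replicate 1 (limma adjusted p = 0.0696 and 0.0631) or excitatory replicate 2 (0.0584 and 0.058), and those of Gna12, Gnaq and Gnaz whichever library was left out (0.14 to 0.295 for Gna12, 0.0632 to 0.132 for Gnaq, 0.0996 to 0.246 for Gnaz).

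**Figure D2:**
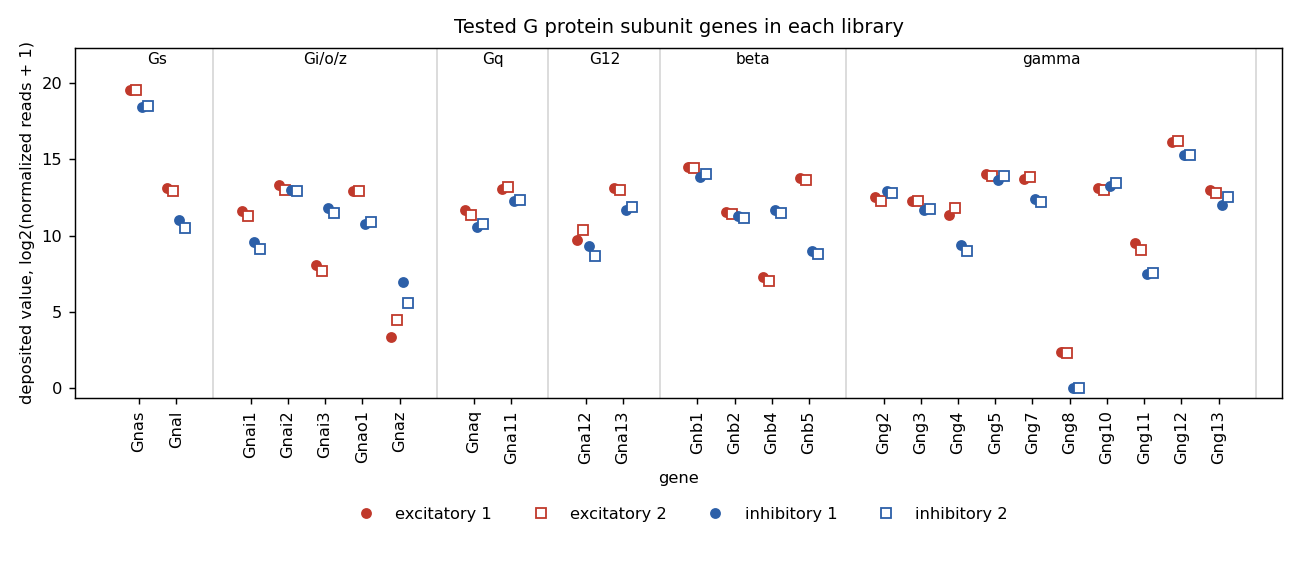
Deposited value, log2(normalized reads + 1), of each tested alpha, beta and gamma subunit gene among the members (horizontal axis, by class) in the 4 libraries. Red symbols are the excitatory and blue the inhibitory libraries, circles replicate 1 and squares replicate 2. Gnai3 and Gnb4 are higher in the inhibitory libraries while Gnb5 is higher in the excitatory ones.

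Beta subunits form a tight pair with gamma. The common beta gene Gnb1 was close between the labels, whereas Gnb5 and Gnb4 differed by more than 4 units in opposite directions. Gnb5, the divergent beta subunit that pairs with RGS proteins of the R7 family instead of gamma, was 13.73 and 13.66 under the excitatory and 8.96 and 8.78 under the inhibitory label. The difference was 4.83 (SE 0.16, 28.4-fold, limma adjusted p = 9.49e-05; scaled 4.29, 19.5-fold). Gnb4 was 7.29 and 7.05 under the excitatory label against 11.65 and 11.50 in the inhibitory libraries, 21.2-fold higher in the latter (difference -4.40, SE 0.22, limma adjusted p = 0.000142; scaled -4.94). Replicates of a label differed by at most 0.24 in any tested beta gene, so both gaps were many times the replicate spread. Gnb1, at 14.48 and 14.43 against 13.86 and 14.05, passed in the deposited values (difference 0.50, SE 0.11, limma adjusted p = 0.0114) with a scaled difference of -0.04 (adjusted p = 0.71), and lost its call without excitatory replicate 1 or 2 (0.131 and 0.117). Gnb2, at 11.57 and 11.41 against 11.31 and 11.17, did not pass in either (limma adjusted p = 0.222 and, scaled, 0.185). Gnb3, the beta gene of cones, was listed at 0 in all libraries.

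Gamma subunits carry the lipid that holds the pair on the membrane, and all 10 gamma genes among the members were tested. Of these, 6 were higher in the excitatory libraries, where 45.0% of all tested genes were, 1 was lower there (26.8% of all) and 3 did not pass. With scaled values 5 were higher (32.4% of all), 2 lower (33.5% of all) and 3 did not pass. Gng4 was 11.36 and 11.82 under the excitatory and 9.35 and 9.01 under the inhibitory label (5.32-fold; difference 2.41, SE 0.26, limma adjusted p = 0.00115; scaled 1.87). Gng7, the partner of the Gnal product in striatum, was 13.68 and 13.82 against 12.37 and 12.18 (2.78-fold; difference 1.48, SE 0.13, limma adjusted p = 0.000646; scaled 0.93). Gng11, a widely expressed gamma gene, was 9.48 and 9.06 against 7.50 and 7.53 (difference 1.75, SE 0.28, limma adjusted p = 0.00413; scaled 1.21). These 3 genes were higher in both excitatory libraries by well over the replicate gap. Gng12, a gamma gene also expressed outside neurons, was 16.11 and 16.16 against 15.24 and 15.28 (difference 0.87, SE 0.062, limma adjusted p = 0.000341; scaled 0.33, adjusted p = 0.0159). Gng8, a gene of olfactory and vomeronasal neurons, was at 0 under the inhibitory label and at 2.35 and 2.29 under the excitatory label, about 3 estimated reads each (limma adjusted p = 0.00394). It reached the minimum through the excitatory libraries alone, so its p-value adds no support. With a pseudocount of 16 it did not pass (difference 0.32, limma adjusted p = 0.101). Itgal, a leukocyte integrin gene, has the same values as Gng8 in all 4 libraries. In the other direction, Gng2 was 12.50 and 12.25 against 12.95 and 12.75 (difference -0.47, SE 0.16, limma adjusted p = 0.0456; scaled -1.02, adjusted p = 0.00514). Gng3, a gamma gene of neurons, was 12.25 in both excitatory libraries against 11.66 and 11.76 and passed in the deposited values (difference 0.54, limma adjusted p = 0.0197), but its scaled difference was -0.01. Gng10, at 13.14 and 13.01 against 13.26 and 13.46, passed only after scaling (-0.83, limma adjusted p = 0.0029). Gng5 (14.03 and 13.90 against 13.61 and 13.89) and Gng13 (12.99 and 12.79 against 11.998 and 12.52) did not pass in either scaling. The gamma genes Gngt1 and Gngt2 fall outside the symbol rule and were counted with the other pathway genes. Neither passed in either scaling, and Gngt2 was 12.15 and 11.68 against 11.295 and 11.68. Calls were lost without either inhibitory library for Gng11 (limma adjusted p = 0.0735 and 0.0712), without inhibitory replicate 2 for Gng4 (0.0523), without either excitatory library for Gng3 (0.0679 and 0.0682) and whichever library was left out for Gng2 (0.0997 to 0.224).

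Because levels of different genes compare only per length, each linear value was divided by the gene's exonic length in GENCODE M21, and shares of a class were taken within each library, where no scaling between libraries enters. The labels do not name the authors' gene models, so these lengths are an estimate. Gnas made up 87.8% and 88.2% of the alpha total per kb in the excitatory libraries and 83.8% and 85.2% in the inhibitory ones. The beta class was divided differently by label: Gnb1 took 50.3% and 51.0% under the excitatory and 75.0% and 79.2% under the inhibitory label, Gnb5 took 41.2% and 41.0% against 3.45% and 2.80%, and Gnb4 0.115% and 0.102% against 5.45% and 4.55%. Of the gamma members, which leave out Gngt1 and Gngt2, Gng12, Gng13 and Gng10 held the largest shares in the excitatory libraries (31.3% and 33.7%, 22.1% and 19.9%, 14.4% and 13.6%). Their inhibitory shares were 26.4% and 23.8%, 17.0% and 21.5%, and 24.1% and 24.3%. A change of share shows that genes of a class differed unequally and not which of them differed.

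**Figure D3:**
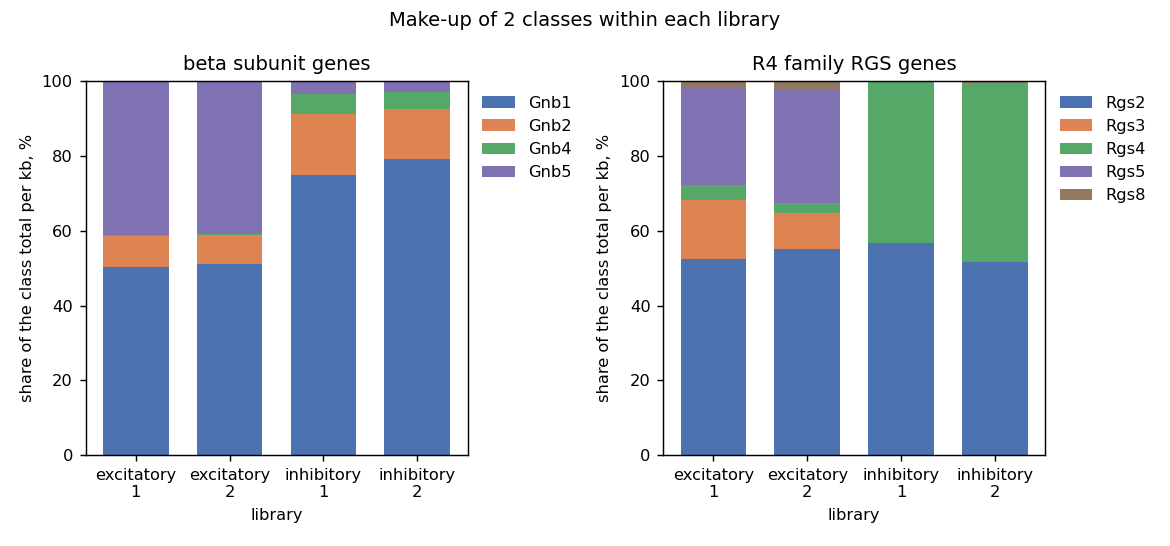
Share (%, vertical axis) of each gene in the summed level per kb of exon of its class, within each of the 4 libraries, for the beta subunit genes (left) and the R4 family of RGS genes (right). Gnb5 takes about 41% of the beta total in both excitatory libraries and under 4% in both inhibitory ones, and Rgs5 and Rgs3 give way to Rgs4 in the R4 family.

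Members of the R7 family work as complexes with the Gnb5 product and speed up GTP hydrolysis by inhibitory-class alpha subunits. Although Gnb5 differed 28.4-fold, Rgs7, the main R7 gene here, had overlapping values of 12.19 and 12.57 under the excitatory and 12.30 and 11.90 under the inhibitory label. It did not pass in the deposited values (difference 0.28, SE 0.22, limma adjusted p = 0.313), and its scaled difference was -0.26 (adjusted p = 0.409). Rgs7 took between 98.1% and 99.9% of the R7 total per kb in every library. The other R7 genes were low or listed at 0 by label. Rgs6 had 6.92 and 6.88 in the excitatory libraries, about 93 and 95 estimated reads, against a listed 0 under the inhibitory label (limma adjusted p = 0.000136). Rgs9, the R7 gene of striatum and photoreceptors, likewise had values of 4.17 and 4.46 under the excitatory label alone (limma adjusted p = 0.000568). Rgs11 went the other way, with 2.14 and 1.39 under the inhibitory label and 0 under the excitatory one, under 5 estimated reads each, and lost its call without either excitatory library (limma adjusted p = 0.126 and 0.125). Rgs6, Rgs9 and Rgs11, and Rgs9bp below, each reached the minimum through a single label, so their p-values add no support. Such zeros are common in these tables and need not mean absence: 754 genes were at 0 in both inhibitory libraries with at least 5 in both excitatory ones and 731 the other way round. Rgs7bp, which encodes the protein that anchors R7 complexes to the membrane, was 12.47 and 12.31 against 11.52 and 11.28. Its difference of 0.99 (SE 0.16, limma adjusted p = 0.00487) fell to 0.44 after scaling (adjusted p = 0.0773) and lost its call without excitatory replicate 1, excitatory replicate 2 or inhibitory replicate 2 (0.077, 0.064 and 0.053). Rgs9bp, which encodes the photoreceptor anchor of the Rgs9 product, had 1.39 and 2.87 against 0.47 and 0 and passed narrowly (limma adjusted p = 0.0463), not after scaling (0.0745) and not without excitatory replicate 2 (0.12) or either of inhibitory replicates 1 and 2 (0.217 and 0.288).

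R4 family members are mostly small proteins with little outside the RGS domain, and this family held the largest differences of all members. Rgs4, a regulator of cortical neurons that acts on inhibitory-class and Gq-class alpha subunits, was 6.62 and 6.05 under the excitatory and 10.72 and 10.92 under the inhibitory label. It was 22.4-fold higher in the inhibitory libraries (difference -4.48, SE 0.30, limma adjusted p = 0.000297; scaled -5.02, adjusted p = 0.000236). Rgs5, known as a gene of pericytes, was 9.79 and 10.04 under the excitatory label against 1.83 and 1.79 in the inhibitory libraries, the latter about 3.5 and 2.8 estimated reads. The difference was 8.10 (SE 0.32, limma adjusted p = 9.49e-05; scaled 7.63). Among 8 markers of mural cells, Pdgfrb (8 and 7.72 against 0 and 0) and Notch3 (8.20 and 8.11 against 5.28 and 2.38) were higher in the excitatory libraries too. Abcc9 (6.39 and 6.94 against 5.43 and 6.03) and Acta2 (3.83 and 3.30 against 3.11 and 3.50, scaled difference -0.23) did not pass, Cspg4 was above 0 in inhibitory 2 alone (1.83), and Kcnj8, Vtn and Anpep were listed at 0 in all 4. The log2 of the summed level of this list was 9.27 to 9.33 in the excitatory and 6.37 to 6.47 in the inhibitory libraries, and its part in the Rgs5 difference was not tested. Both tested markers of endothelium, out of 8, were also higher under the excitatory label: Slco1c1 was 13.76 and 13.70 against 11.88 and 11.79, and Flt1 1.37 and 1.87 against 0 and 0. Pdgfrb and Flt1 reached the minimum through the excitatory libraries alone and could hardly fail to differ, so their calls add no support. Pecam1 was above 0 in inhibitory 2 alone (2.82), and Cldn5, Tek, Kdr, Esam and Cdh5 were listed at 0 in every library. The log2 summed level of the endothelium list, close to that of Slco1c1 alone, was 13.70 to 13.76 against 11.79 to 11.88. Its part in the Rgs5 difference was not tested either.

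Rgs3 had 10.33 and 9.64 under the excitatory label and a listed 0 under the inhibitory one (limma adjusted p = 9.49e-05, scaled 0.000126). It reached the minimum through the excitatory libraries alone and could hardly fail to differ, so its p-value adds no support. Rgs2, which acts mainly on Gq-class subunits and is switched on quickly by stimuli, was 10.48 and 10.58 under the excitatory and 11.34 and 11.26 under the inhibitory label (1.71-fold higher in the latter; difference -0.77, SE 0.16, limma adjusted p = 0.0118; scaled -1.31, adjusted p = 0.0029). Its call was lost without excitatory replicate 1 or inhibitory replicate 1 (0.0516 and 0.0575). Rgs8, a gene of Purkinje cells, was 7.03 and 7.41 against 4.73 and 5.87 (difference 1.92, SE 0.50, limma adjusted p = 0.022), did not pass after scaling (1.38, adjusted p = 0.0608) and lost its call without excitatory replicate 1, excitatory replicate 2 or inhibitory replicate 1 (0.174, 0.218 and 0.103). Within libraries, Rgs2 took 51.6% to 56.7% of the R4 total per kb under both labels. Rgs5 took 25.9% and 30.2% and Rgs3 15.8% and 9.65% in the excitatory libraries, against 43.0% and 47.9% for Rgs4 in the inhibitory ones.

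**Figure D4:**
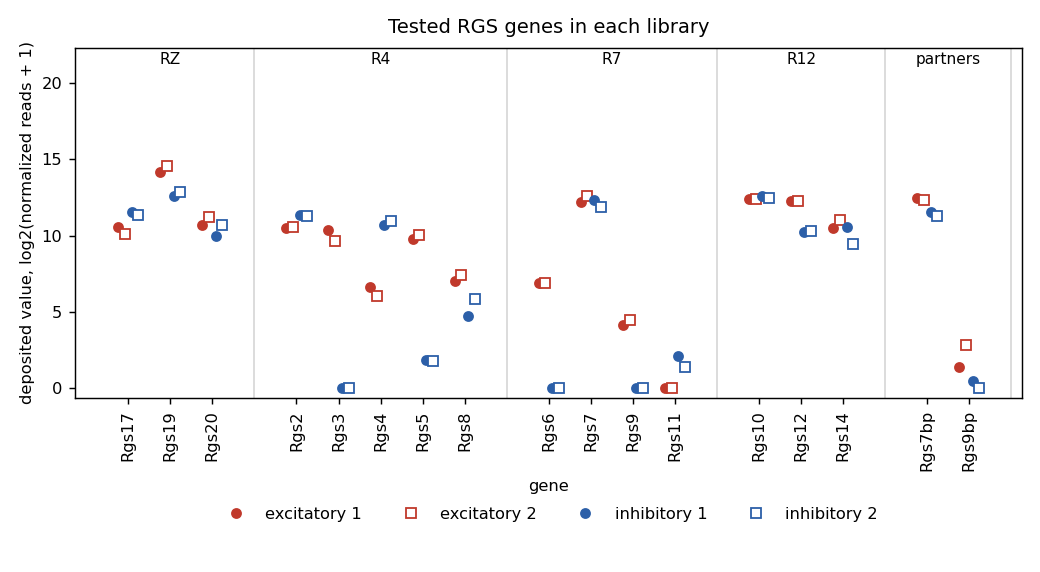
Deposited value, log2(normalized reads + 1), of each tested Rgs gene (horizontal axis, by family) in the 4 libraries, with red for excitatory, blue for inhibitory, circles for replicate 1 and squares for replicate 2. Rgs3, Rgs5, Rgs6 and Rgs9 sit at or near 0 in both inhibitory libraries, Rgs4 is higher in both inhibitory libraries, and the values of Rgs7 overlap.

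Several Rgs genes lie side by side on chromosome 1, and the neighbours Rgs5 and Rgs4 went in opposite directions. On the GENCODE M21 annotation of mm10, Rgs5 spans 169655501 to 169695813 on the plus strand and Rgs4 169741477 to 169747642 on the minus strand, so that their ends face each other across 45.7 kb, and these 2 genes had the largest opposite differences among members above 0 in all libraries. Rgs8 (153653025 to 153700323) lies 40.0 kb from Rgs16, which was listed at 0 in all 4 libraries. In the cluster of Rgs2, Rgs13, Rgs1, Rgs21 and Rgs18 between 143999338 and 144775435, all on the minus strand, Rgs2 alone had values above 1. Rgs13, Rgs21 and Rgs18 were listed at 0 everywhere and Rgs1, an immune cell regulator, had 0.29 in excitatory 1 and 0 elsewhere. Rgs22, on chromosome 15, was also listed at 0 in all libraries.

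Differences in the R12 and RZ families were at most 2.00, smaller than the largest of the R4 family. Rgs12, a scaffold that binds both inhibitory-class alpha subunits and RAS, was 12.24 and 12.29 under the excitatory and 10.25 and 10.29 under the inhibitory label (difference 2.00, SE 0.15, limma adjusted p = 0.000398; scaled 1.46, adjusted p = 0.00132). Its relative Rgs14, a RAS-binding and RAF-binding regulator known from hippocampal area CA2, overlapped between the labels, with 10.49 and 11.01 against 10.54 and 9.47 (limma adjusted p = 0.182). Rgs10, a small member abundant in microglia and also present in neurons, was 12.37 and 12.42 against 12.56 and 12.43, did not pass in the deposited values (difference -0.10, limma adjusted p = 0.529) and was called higher in the inhibitory libraries after scaling (-0.64, adjusted p = 0.0158). Of the RZ genes, Rgs19, a regulator of inhibitory-class alpha subunits, was 14.19 and 14.55 against 12.61 and 12.82 (3.14-fold; difference 1.65, SE 0.17, limma adjusted p = 0.000976; scaled 1.11). Rgs17 was higher in the inhibitory libraries, with 10.57 and 10.12 against 11.55 and 11.34 (2.14-fold; difference -1.10, SE 0.23, limma adjusted p = 0.0108; scaled -1.64). Rgs20, at 10.71 and 11.20 against 9.97 and 10.68, did not pass (limma adjusted p = 0.145). The calls of Rgs19 were lost without inhibitory replicate 1 or 2 (limma adjusted p = 0.0593 and 0.051) and that of Rgs17 without excitatory replicate 2 (0.073) or either of inhibitory replicates 1 and 2 (0.137 and 0.106). Per kb, Rgs19 and Rgs10 together led the RGS proteins in every library: Rgs19 took 57.7% and 61.4% under the excitatory and 29.5% and 34.5% under the inhibitory label, and Rgs10 21.32% and 18.3% against 37.0% and 34.2%.

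Markers of other cells moved with the labels beside these genes. Of 12 microglia and leukocyte markers 7 were higher in the inhibitory libraries by limma, where 26.8% of all tested genes were, and 0 in the excitatory libraries. After scaling the counts were 10, where 33.5% of all tested genes were higher in the inhibitory libraries, and 0. The log2 summed level of these markers was 15.49 to 15.59 in the excitatory and 16.64 to 16.93 in the inhibitory libraries. Ptprc, among the called markers, reached the minimum through the inhibitory libraries alone and could hardly fail to differ. Of 8 astrocyte markers 6, and of 8 oligodendrocyte markers 5, were higher in the excitatory libraries, with none called the other way in the deposited values, where 45.0% of all tested genes were higher. After scaling 3 astrocyte markers were higher and 2 lower, and 5 oligodendrocyte markers higher and 2 lower. Of all tested genes 32.4% were then higher and 33.5% lower. Their log2 summed levels were 20.96 to 20.98 against 20.18 to 20.27 for astrocytes and 21.48 to 21.51 against 21.39 in both inhibitory libraries for oligodendrocytes. The part of these cells in the differences of the called members was not tested.

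Other genes of the pathway were counted in the same way. The list held 44 symbols, of receptor kinases, arrestins, G protein chaperones and modulators, effector enzymes and channels, and the gamma genes Gngt1 and Gngt2. Of these, 41 were in the tables and 38 were tested. Among the tested genes 17 were higher under the excitatory label, 9 under the inhibitory label and 12 passed in neither direction. Scaled values gave 13, 13 and 12. Over all tested genes 45.0% and 26.8% passed, and 32.4% and 33.5% with scaled values, so the shares of this list were near those of all genes. The median difference of this list was 0.37 in the deposited values, against 0.52 over all tested genes. Arrb2, which encodes a beta-arrestin that silences activated receptors, had 12.01 and 11.41 under the excitatory label and a listed 0 under the inhibitory one. Gpsm1, which encodes a protein that binds GDP-bound inhibitory-class alpha subunits, was 11.71 and 11.53 against 4.28 and 4.71. Plcb4, a phospholipase C gene downstream of Gq-class subunits, had 6.80 and 6.60 against 0 in both inhibitory libraries, and Arhgef25, a guanine nucleotide exchange factor gene, was 13.72 and 13.59 against 11.20 and 10.84. In the other direction, Pdcl, which encodes a chaperone of the beta-gamma pair, had 0.43 and 0.34 under the excitatory label against 10.72 and 10.27 in the inhibitory libraries. Plcb2, a phospholipase C gene of blood cells, and Gpsm3, another modulator gene, were at 0 under the excitatory label, with inhibitory values of 10.76 and 10.12 for Plcb2 and of 6.10 and 6.26 for Gpsm3. Arrb2, Plcb4, Pdcl, Plcb2 and Gpsm3 each reached the minimum through the libraries of a single label and could hardly fail to differ. Their calls therefore add no support, and the counts of this list include such genes. Adcy7, an adenylyl cyclase gene, had 0 and 2.31 against 9.84 and 9.90, a call that did not hold when either inhibitory library was dropped (limma adjusted p = 0.0672 and 0.0667). Fewer genes of this list were called in each direction whichever library was left out.

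Some members share exonic sequence with a gene on the other strand, and the protocols do not say that strand was kept, so reads there cannot be told apart. Such overlaps with genes in the tables include 852 bases of Gnal with Mppe1, 456 of Gna12 with Amz1, 399 of Gng13 with Chtf18 and 398 of Gng3 with Bscl2. Gnas overlaps Nespas and a predicted gene, Gm20721, by up to 1469 bases. On the same strand, Gng10 shares 946 of its 1314 exonic bases with Gm20503, which has no deposited values. Keeping strand would not separate reads there.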

How the data were processed

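RNA-seq libraries of 2 labels, 2 each, were compared. TopHat, edgeR and build mm10 are named in the submitters' processing notes, without roles or versions; how reads were counted, and on which annotation, is not given in the sources used here. Deposited tables hold log2 values, read here as log2(normalized reads + 1). The added 1 is assumed, as the spacing of low linear values would be the same with another constant. That spacing differs between libraries (1.29, 1.23, 0.72 and 0.872 in excitatory 1, excitatory 2, inhibitory 1 and inhibitory 2). Mbp alone among genes above 0 has the same value, 21.331, in all 4. The first step from 0 is smaller than the spacing, so whole reads were not recovered, estimated reads (about 6.20e+07 to 7.42e+07 a library) are approximate and no counting interval was computed.

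In R 4.3.3, limma 3.58.1 with a mean-variance trend was fitted to the 13619 genes that reached 1 in 2 or more libraries (residual degrees of freedom 2, prior 2.56). The script was tested on simulated data. Symbols of all 54 members matched GENCODE M21. Members and lists were chosen with earlier results of these data known. All members could be named, with values for those past the threshold or with a mean of at least 10, and of the other pathway genes the 4 with the smallest p in each direction. Alternatives tried were scaling by upper quartiles or by median-of-ratios factors from 10554 genes, 2 other filters, a pseudocount of 16, 2 other variance priors, a replicate block and leaving out each library. Protein sequences were not used here.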

Additional observations from a re-analysis of the deposited data

How the results depend on the processing

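Of 500 refits of the 42 tested members under 12 alternatives, 410 kept direction and call. With direction kept, 70 lost the call and 9 gained one. The other 11 changed sign, and among them the refits of Gnb1 and Gng3 also lost a call. All sign changes of members came with rescaling and none of the changed values passed: under median-of-ratios and upper-quartile scaling the differences were -0.34 and -0.32 for Gnai2, -0.042 and -0.022 for Gnb1, -0.29 and -0.27 for Gnb2, -0.33 and -0.31 for Gng5 and -0.26 and -0.25 for Rgs7, and Gng3 was at -0.0056 under median-of-ratios scaling. Slc17a7 changed sign likewise (-0.24 and -0.22), and Gad2, at -0.08 in all libraries, ranged from -0.40 to 0.25 when single libraries were left out (0.25 without excitatory replicate 1). Without any 1 library, 16 to 19 members were higher in the excitatory and 4 to 5 in the inhibitory libraries, 9 to 13 and 5 to 8 of the other pathway genes, and 6103 to 6551 of all tested genes passed. With the replicate number as a replicate block, 26 and 8 members and 9782 genes passed; same-numbered libraries did not deviate together (r = -0.0019 across tested genes, which are not independent), and the labels do not say that the numbers pair the samples. Members with few estimated reads (Gng8, Rgs11 and Rgs9bp) are limited by depth: with a pseudocount of 16 none of these 3 passed (limma adjusted p = 0.101, 0.262 and 0.2). Without a mean-variance trend Gna12, Gnb1, Gng2, Gng3 and Rgs9bp did not pass (limma adjusted p = 0.0544 to 0.116). Gng13 passed under 4 alternatives (limma adjusted p = 0.0412 to 0.045), and Rgs20 with the replicate block (0.0494).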
